A study of Mus musculus with 6 samples.

Results

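Transcript levels of 10 genes of iron handling and ferroptosis were compared between axitinib-resistant (AxR) and parental (P) 4T1 cells. The genes were taken by symbol for their known roles. The rule uses no measured value, but it was written with earlier results of these data known. It holds the iron importers Tfrc and Slc11a2, the ferritin chains Fth1 and Ftl1, the ferritin receptor Ncoa4, the iron exporter Slc40a1, and the ferroptosis regulators Gpx4, Aifm2, Acsl4 and Lpcat3. All 10 were found among the 53465 genes of the count file, and all 10 were among the 13550 genes with enough counts to be tested. 4T1 is a mouse mammary carcinoma line. AxR cells were grown out of a metastatic lesion, after removal of the primary tumor, in mice dosed with the VEGF receptor inhibitor axitinib at 100 mg/kg/day, and were then kept in culture with axitinib at 0.5 μM for more than 2 months. P cells are the parental line, which was not derived in this way. The treatment label names axitinib for AxR samples only, whereas the growth label names 0.5 μM for all 6 samples. The paper describes the parental cells of its transcriptome comparison as vehicle-treated, and names axitinib in culture for resistant cells. There were 3 libraries of each line, and nothing in the labels says that they came from separate cultures, so p-values measure the spread between libraries, which may be technical. Each line is a single cell population, so a difference between the lines covers drug exposure, growth in the animal, selection and culture history alike, and these cannot be told apart here.

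Cells take up transferrin-bound iron through the transferrin receptor (Tfrc), move ferrous iron across membranes through Slc11a2, and release it through ferroportin (Slc40a1). Surplus iron is kept in ferritin, a shell of heavy (Fth1) and light (Ftl1) chains, and Ncoa4 carries ferritin to lysosomes when iron is needed. Ferroptosis is a form of cell death in which iron drives the peroxidation of membrane lipids. Acsl4 and Lpcat3 place the oxidizable fatty acids in phospholipids, Gpx4 reduces the peroxides they form, and Aifm2 (also called FSP1) regenerates ubiquinol as a lipid-soluble antioxidant.

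Several of these transcripts carry an iron-responsive element, a hairpin that binds iron regulatory proteins when iron is scarce. Binding in the 5′ UTR blocks translation, and binding in the 3′ UTR of Tfrc protects the message from decay. The sequences are shown because RNA levels of Tfrc, and protein levels of ferritin and ferroportin, are known to respond to iron through them. The UTRs of protein-coding GENCODE M21 transcripts were searched on the transcript strand for a C, 5 bases, the loop CAGTGN, and 5 bases able to pair with the first 5, G-T pairs allowed. A site was found in 4 of the 10 genes. Each site below runs 5′ to 3′, is 17 bases long, has its loop in capitals, and has its GRCm38 position after it.
Fth1, 5′ UTR: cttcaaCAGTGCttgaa (chr19:9982738-9982754, plus strand)
Ftl1, 5′ UTR: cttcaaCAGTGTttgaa (chr7:45459785-45459801, minus strand)
Slc40a1, 5′ UTR: cagctaCAGTGTtagct (chr1:45925471-45925487, minus strand)
Tfrc, 3′ UTR: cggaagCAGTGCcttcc (chr16:32631225-32631241, plus strand)
Tfrc, 3′ UTR: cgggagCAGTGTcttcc (chr16:32631604-32631620, plus strand)
Tfrc, 3′ UTR: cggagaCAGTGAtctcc (chr16:32631669-32631685, plus strand)
Tfrc, 3′ UTR: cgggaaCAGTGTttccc (chr16:32631716-32631732, plus strand)
The stems of Fth1 and Ftl1 were identical and only the last base of the loop differed. Among tested genes with a 5′ UTR, 25 of 11399 (0.219%) held such a site, and 95 of 11426 (0.831%) held a site in the 3′ UTR. Over windows of 319 bases, the longest of the 5′ UTRs shown, 0.169% of 4144 UTRs held a site, and over windows of 2458 bases, the length of the Tfrc 3′ UTR, 1.04% of 2593 did. Tfrc had the most sites of any gene searched. Slc11a2 is known to carry an iron-responsive element in the 3′ UTR of one isoform, which this strict pattern does not match, so a gene without a match here may still hold one. A match of letters is a description and does not show that a protein binds there.

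Libraries held between 15495260 and 17294525 estimated counts. CPM, the counts scaled by normalized library size, are used for levels, and a count of 3 corresponded to between 0.171 and 0.196 CPM. Each of the epithelial markers Epcam, Krt8, Krt18, Krt19, Cdh1, Cldn3 and Cldn4 had more than 3 counts in some library. The epithelial markers summed to 1840 to 2010 CPM in P and 2570 to 2650 CPM in AxR cells. The highest was Krt18 (676 and 867 CPM on average). Macrophages are rich in ferritin and ferroportin, and 7 of 10 macrophage markers had at most 3 counts in every library. Of these, Tyrobp, Fcer1g, Adgre1 and Vsig4 had no count in any library. Their summed level was 3.53 to 3.98 CPM in P and 8.31 to 8.76 CPM in AxR cells, nearly all from Cd68 (3.39 and 8.02 CPM on average). All 6 erythroid markers had at most 3 counts in every library. Lung epithelial markers summed to at most 0.425 CPM, endothelial markers to at most 0.635 CPM, and fibroblast markers to 22.5 to 24.1 CPM in P and 10.2 to 11.6 CPM in AxR cells, of which Pdgfra made up 22.6 and 10.1 CPM on average. The part of Cd68 and Pdgfra expression in the values below was not tested. In RNA from whole cultures, fewer cells with a transcript and less of it per cell cannot be told apart.

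Both ferritin chains, the transferrin receptor, Gpx4 and Aifm2 were higher in AxR than in P cells, by 1.34-fold for Gpx4 up to 2.64-fold for Ftl1. Acsl4 and Slc40a1 were lower, by 1.20-fold and 1.31-fold. Slc11a2, Ncoa4 and Lpcat3 did not pass the test. With an adjusted p under 0.05 as the threshold in edgeR's quasi-likelihood test, 7 of 10 genes passed (5 higher, 2 lower), against 63.5% of all genes tested (32.8% higher and 30.8% lower). The median log2 fold change was 0.31, and 0.0058 over all genes tested. The share that passed was therefore near the background, and what follows describes single genes rather than the set. The 3 libraries of AxR cells did not overlap the 3 of P cells in 6 of the 10 genes, and in 68.3% of all genes tested. The criterion of a log2 fold change of at least 1 was met by Ftl1 alone, and by 7.99% of all genes tested upward and 4.72% downward (12.7% in all). For a gene without overlap the exact two-sided permutation test gives p = 0.1, the smallest that 3 libraries against 3 allow.

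**Figure D1:**
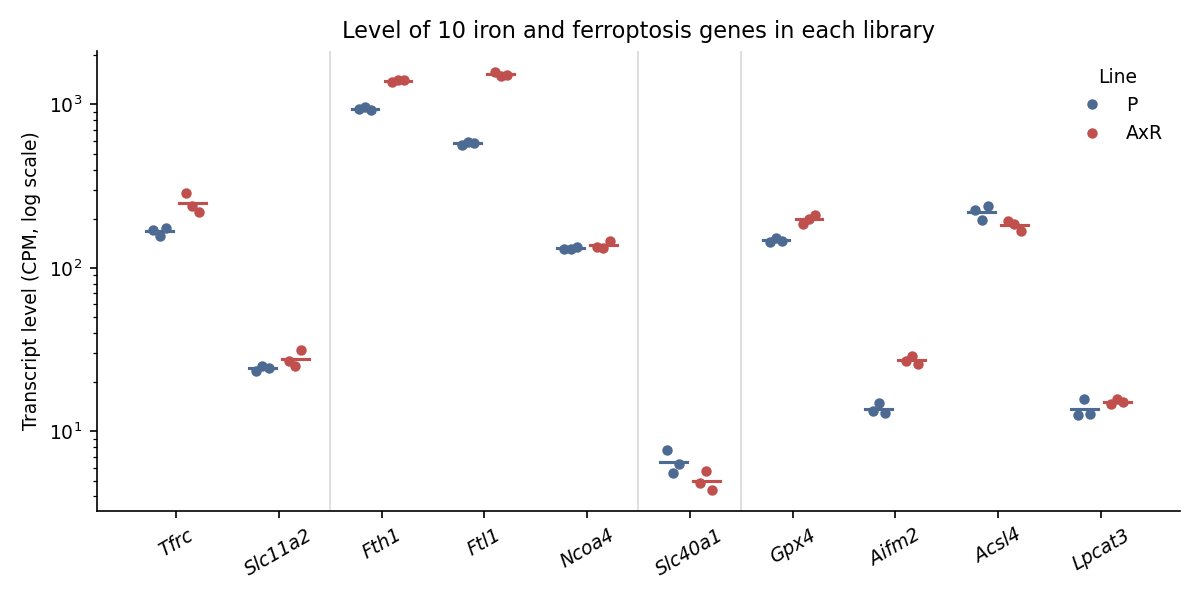
Level of each gene in CPM (log axis), with 1 point per library (P blue, AxR red), a bar at the mean of 3 libraries, and grey lines between import, storage, export and ferroptosis genes. Ftl1 rose from a mean of 580 to 1533 CPM, and Slc40a1 was the lowest in both lines at 6.51 and 4.98 CPM.

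Among the importers, only Tfrc passed the test. Tfrc (ENSMUSG00000022797.15, chr16:32608920-32632794, plus strand) had 170, 157 and 174 CPM in P replicates 1 to 3 and 288, 240 and 220 CPM in AxR replicates 1 to 3. Every AxR library was above every P library, and AxR replicate 1 was the highest of the 6. The mean was 167 CPM in P (SD 8.82) and 250 CPM in AxR cells (SD 34.7, n = 3 for both). This gave a log2 fold change of 0.58 (standard error 0.089, edgeR adjusted p = 0.000213), which was 0.47 without AxR replicate 1. The other importer, Slc11a2 (ENSMUSG00000023030.16, chr15:100387898-100425072, minus strand), also known as DMT1, had 23.5, 25.3 and 24.5 CPM in P and 26.9, 25.1 and 31.3 CPM in AxR replicates 1 to 3. The lines overlapped, and AxR replicate 3 was the highest. Its log2 fold change was 0.19 (95% interval 0.0040 to 0.37, edgeR adjusted p = 0.0693). Without AxR replicate 2 it was 0.26 and passed (edgeR adjusted p = 0.0264), and over all alternatives the adjusted p lay between 0.0264 and 0.336.

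Ferritin transcripts were the most abundant of the set, and both rose, the light chain 2.64-fold and the heavy chain 1.49-fold. Ftl1 (ENSMUSG00000050708.16, chr7:45457944-45459884, minus strand) had 564, 593 and 584 CPM in P and 1588, 1503 and 1507 CPM in AxR replicates 1 to 3. Every AxR library was far above every P library, and replicates of a line lay close together. The log2 fold change was 1.40 (standard error 0.046, edgeR adjusted p = 3.03e-12), larger in absolute value than that of 92.3% of the genes tested. Fth1 (ENSMUSG00000024661.6, chr19:9980598-9985098, plus strand), whose chain oxidizes iron for storage, had 932, 967 and 921 CPM in P and 1364, 1417 and 1409 CPM in AxR replicates 1 to 3. The lines were again clearly apart, with a log2 fold change of 0.57 (standard error 0.044, edgeR adjusted p = 3.17e-08). The iron-responsive elements of both chains act on translation, and ferritin protein was not measured here.

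Within a library, the ratio of Fth1 to Ftl1 counts does not depend on scaling between libraries. It was 1.65, 1.63 and 1.58 in P and 0.859, 0.942 and 0.935 in AxR replicates 1 to 3, so Fth1 counts exceeded Ftl1 counts in every P library and in no AxR library. The log2 ratio fell by 0.83 (standard error 0.047, exact two-sided permutation p = 0.1, adjusted p = 0.125 over the 5 ratios computed). No ratio could pass 0.05 with 3 libraries a line.

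Ferritin light chain reads can match several copies in the mouse genome, and RSEM divides such reads among them by likelihood. Transcripts of 5 other genes matched Ftl1 over at least 200 bases at 95% identity or more on the same strand, and only Ftl1-ps1 (chr13:74399694-74407346) held more than a few counts. Ftl1-ps1 had 77.2, 85.7 and 80.0 CPM in P and 252, 222 and 231 CPM in AxR replicates 1 to 3, so it was higher in every AxR library. Its log2 fold change was 1.54, and it lies on chromosome 13, where the median of tested genes was -0.27. How much of this signal belongs to Ftl1 itself was not tested. With all 5 copies added to Ftl1, an alternative added after the data were seen, the sum was 661 CPM in P (SD 18.4) and 1769 CPM in AxR cells (SD 63.1, n = 3 for both). Its log2 fold change was 1.42 (standard error 0.047, edgeR adjusted p = 3.01e-12). The share of that sum assigned to Ftl1 was 87.7% in P and 86.7% in AxR cells. Antisense to Ftl1 lies Gm10252, with 5.53 CPM in P and 15.3 CPM in AxR cells on average. The sources used here do not say whether the counting used strand. Fth1 had 1 same-strand copy, Gm6977, and kept 99.7% of the joint counts in both lines.

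**Figure D2:**
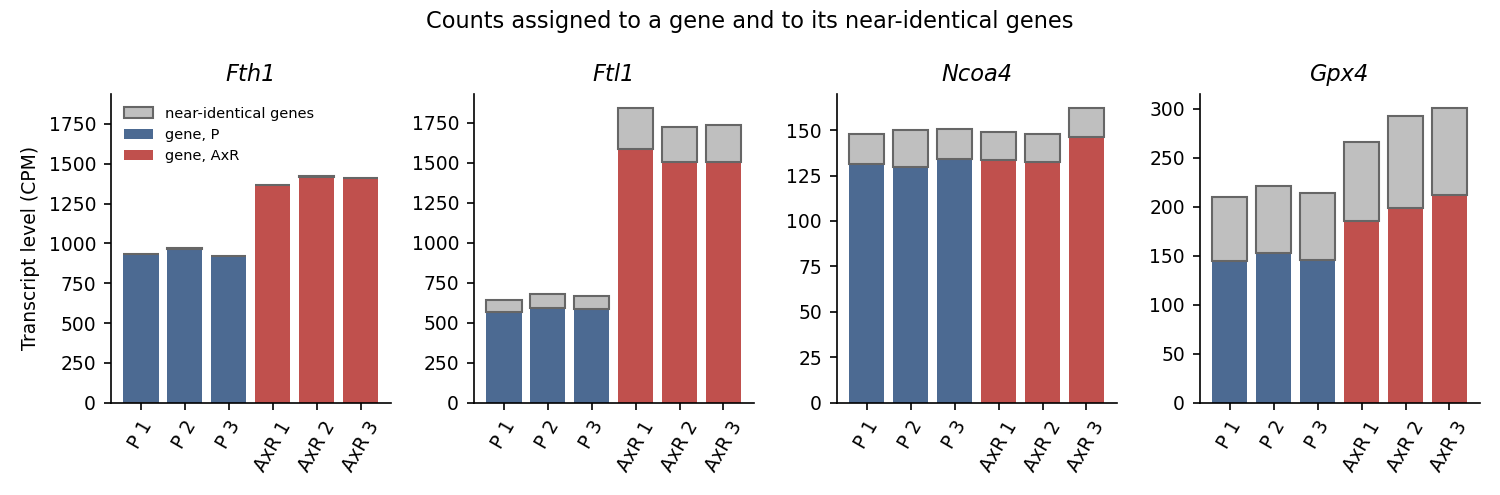
Level in CPM in each of the 6 libraries for the 4 genes with near-identical genes on the same strand, with the counts assigned to the gene in color (P blue, AxR red) and those of its near-identical genes stacked in grey. For Ftl1, Gpx4 and Fth1 the whole bars are higher in AxR libraries, and for Ncoa4 the joint log2 fold change was 0.035.

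Ncoa4, the receptor that takes ferritin to lysosomes, did not pass the test. Ncoa4 (ENSMUSG00000056234.15, chr14:32159865-32179855, plus strand) had 131, 130 and 134 CPM in P and 133, 133 and 146 CPM in AxR replicates 1 to 3, and the lines overlapped. The log2 fold change was 0.061 (95% interval -0.052 to 0.17, edgeR adjusted p = 0.332), an interval that leaves out a change of the size seen in Fth1. Added to its pseudogene copy Gm6768 (chr12:119260978-119262855), it had a log2 fold change of 0.035 (edgeR adjusted p = 0.577).

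Ferroportin was scarce in both lines and fell by a margin that single libraries decided. Slc40a1 (ENSMUSG00000025993.10, chr1:45908068-45926523, minus strand) had 126, 96 and 97 counts in P replicates 1 to 3 and 76, 90 and 77 counts in AxR replicates 1 to 3, equal to 7.66, 5.54 and 6.32 CPM and 4.83, 5.74 and 4.38 CPM. The lines overlapped, since AxR replicate 2 was above P replicate 2. The log2 fold change was -0.39 (standard error 0.16, edgeR adjusted p = 0.0423), beside a median of -0.29 for the 811 genes tested on chromosome 1. The call was lost without P replicate 1 (log2 fold change -0.25, edgeR adjusted p = 0.224), P replicate 3 (adjusted p = 0.0750), AxR replicate 1 (adjusted p = 0.0964) or AxR replicate 3 (adjusted p = 0.136), and with DESeq2 (adjusted p = 0.0883). The ratio of Tfrc to Slc40a1 counts was 22.3, 28.4 and 27.6 in P and 59.7, 41.9 and 50.3 in AxR replicates 1 to 3, with no overlap. It rose by 0.95 on the log2 scale (standard error 0.18, exact two-sided permutation p = 0.1, adjusted p = 0.125 over 5 ratios). By contrast, the ratio of Tfrc to Fth1 counts was 0.183, 0.163 and 0.189 in P and 0.211, 0.170 and 0.156 in AxR replicates 1 to 3. These overlapped, with a log2 difference of -0.0023 (standard error 0.15, exact two-sided permutation p = 1.0). No difference between the changes of the receptor and the heavy chain was detected, and one that is small beside that error could not be seen.

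Both enzymes that remove or prevent lipid peroxides rose, Aifm2 1.98-fold and Gpx4 1.34-fold. Gpx4 (ENSMUSG00000075706.10, chr10:80047166-80056439, plus strand), a selenoenzyme that reduces phospholipid hydroperoxides, had 145, 153 and 146 CPM in P and 186, 199 and 212 CPM in AxR replicates 1 to 3. No AxR library was as low as any P library. The log2 fold change was 0.43 (standard error 0.055, edgeR adjusted p = 7.58e-06). A processed pseudogene on the same chromosome, Gpx4-ps2 (chr10:45875291-45876086), matched Gpx4 over 762 bases and had 67.1 CPM in P and 87.4 CPM in AxR cells on average. Gpx4 kept 68.8% of their joint counts in P and 69.5% in AxR cells, so its own level is uncertain, while the joint log2 fold change was 0.41. Aifm2 (ENSMUSG00000020085.15, chr10:61715263-61739260, plus strand) had 13.4, 14.8 and 12.9 CPM in P and 26.8, 29.1 and 25.7 CPM in AxR replicates 1 to 3. The lines were far apart, with a log2 fold change of 0.98 (standard error 0.084, edgeR adjusted p = 9.12e-08), larger in absolute value than that of 86.7% of the genes tested. Its 3′ end overlaps H2afy2 on the other strand, which had at most 0.574 CPM in any library. The ratio of Aifm2 to Gpx4 counts was 0.0922, 0.0967 and 0.0882 in P and 0.144, 0.146 and 0.121 in AxR replicates 1 to 3, without overlap, and rose 1.48-fold (exact two-sided permutation p = 0.1, adjusted p = 0.125 over 5 ratios).

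Of the enzymes that supply oxidizable lipids, Acsl4 fell and Lpcat3 did not pass the test. Acsl4 (ENSMUSG00000031278.12, chrX:142317993-142390535, minus strand), which activates arachidonic and related fatty acids, had 225, 197 and 238 CPM in P and 195, 186 and 169 CPM in AxR replicates 1 to 3. The lines did not overlap, but P replicate 2 was only slightly above AxR replicate 1. The log2 fold change was -0.27 (standard error 0.071, edgeR adjusted p = 0.00492), and over all alternatives it lay between -0.34 and -0.20 and kept its call. The ratio of Acsl4 to Gpx4 counts fell from 1.55, 1.29 and 1.63 in P to 1.05, 0.934 and 0.797 in AxR replicates 1 to 3, a difference of -0.69 on the log2 scale (standard error 0.15, exact two-sided permutation p = 0.1, adjusted p = 0.125 over 5 ratios). Lpcat3 (ENSMUSG00000004270.13, chr6:124663027-124704418, plus strand), which inserts such fatty acids into phospholipids, had 12.6, 15.8 and 12.8 CPM in P and 14.8, 15.7 and 15.2 CPM in AxR replicates 1 to 3. P replicate 2 lay above every AxR library. The log2 fold change was 0.14 (95% interval -0.071 to 0.36, edgeR adjusted p = 0.226), and without P replicate 2 it was 0.26 and passed (edgeR adjusted p = 0.0367). Over all alternatives its adjusted p lay between 0.0367 and 0.518. Lpcat3 overlaps Emg1 by 334 bases on the opposite strand. Emg1 had 67.8 CPM in P and 64.7 CPM in AxR cells on average, several times the level of Lpcat3, and the estimated counts of both genes were not whole numbers.

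**Figure D3:**
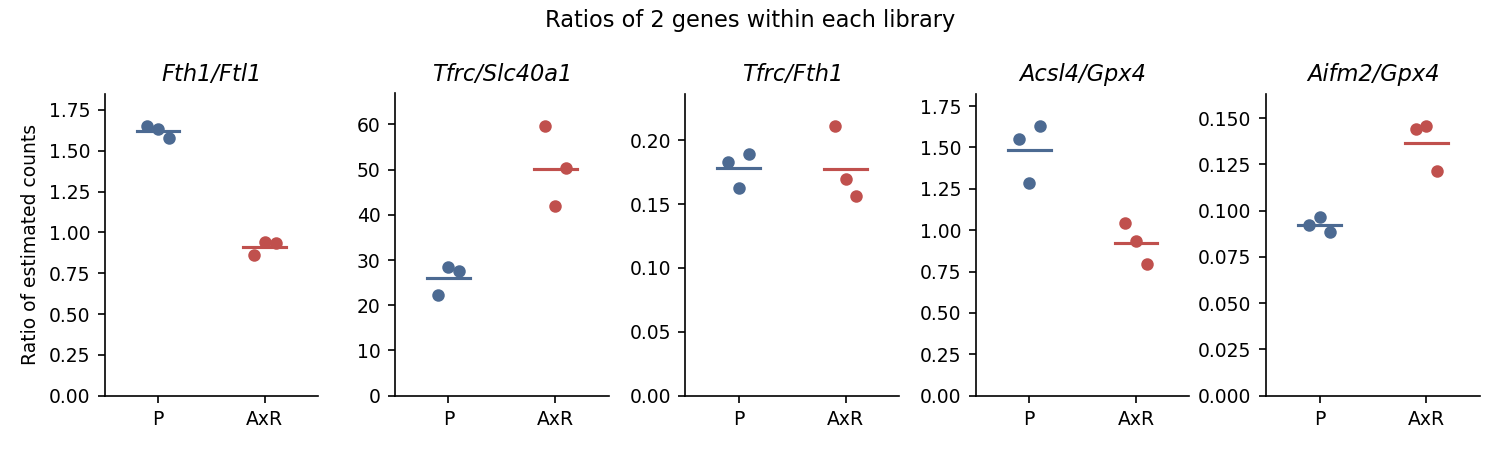
Ratios of estimated counts of 2 genes within each library (linear axes from 0), with 1 point per library (P blue, AxR red) and a line at the geometric mean. The lines do not overlap in 4 of the 5 ratios, and the ratio of Tfrc to Fth1 was 0.178 in both.

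Levels of different genes are comparable only per length. As CPM per kilobase of the union of exons, the order in P cells was Ftl1 (433 ± 10.8), Fth1 (271 ± 6.93), Gpx4 (85.9 ± 2.55), Acsl4 (40.7 ± 3.89), Tfrc (27.1 ± 1.43), Ncoa4 (14.1 ± 0.242), Lpcat3 (4.21 ± 0.550), Slc11a2 (3.84 ± 0.144), Aifm2 (3.33 ± 0.244) and Slc40a1 (0.723 ± 0.119; SD, n = 3 each). In that order only the libraries of Lpcat3 and Slc11a2 overlapped. In AxR cells Tfrc (40.4 ± 5.61 CPM per kilobase) stood above Acsl4 (33.9 ± 2.43), though their libraries overlapped, and Aifm2 (6.60 ± 0.417) stood above Lpcat3 (4.66 ± 0.137) and Slc11a2 (4.37 ± 0.503), which overlapped each other. Ferritin was near the top of all tested genes, 99.8% of which had a lower mean level per length than Ftl1 and 99.3% than Fth1. Slc40a1 was near the bottom, with 11.4% of the tested genes lower. The order of the ferritin chains, and that of Slc11a2, Lpcat3 and Aifm2, depended on the length used. With the length of the annotation's principal transcript, a choice made after the data were seen, Fth1 stood above Ftl1 in P cells (629 ± 16.1 against 600 ± 14.9 CPM per kilobase) and below it in AxR cells (934 ± 19.2 against 1584 ± 49.3). With that length Slc11a2 also stood above Lpcat3 in P cells (8.07 ± 0.303 against 6.03 ± 0.787) and above Aifm2 in AxR cells (9.18 ± 1.06 against 8.81 ± 0.556).

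The median change differed between chromosomes, so each gene is set beside that of its own. Tfrc rose on chromosome 16, whose 397 genes tested gave a median log2 fold change of -0.32 and only 24.2% were above 0. Acsl4 fell on chromosome X, where the median of 405 genes was 0.24. Fth1 lies on chromosome 19, with a median of 0.0014 over 441 genes. Gpx4 and Aifm2 are both on chromosome 10, with a median of 0.25 over 670 genes, which was 0.18 below the value of Gpx4 and 0.73 below that of Aifm2. For Slc40a1 the difference from the chromosome median was -0.096, and for Ftl1 on chromosome 7 it was 1.22. DNA was not measured, and the part of the chromosome in these values was not tested.

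**Figure D4:**
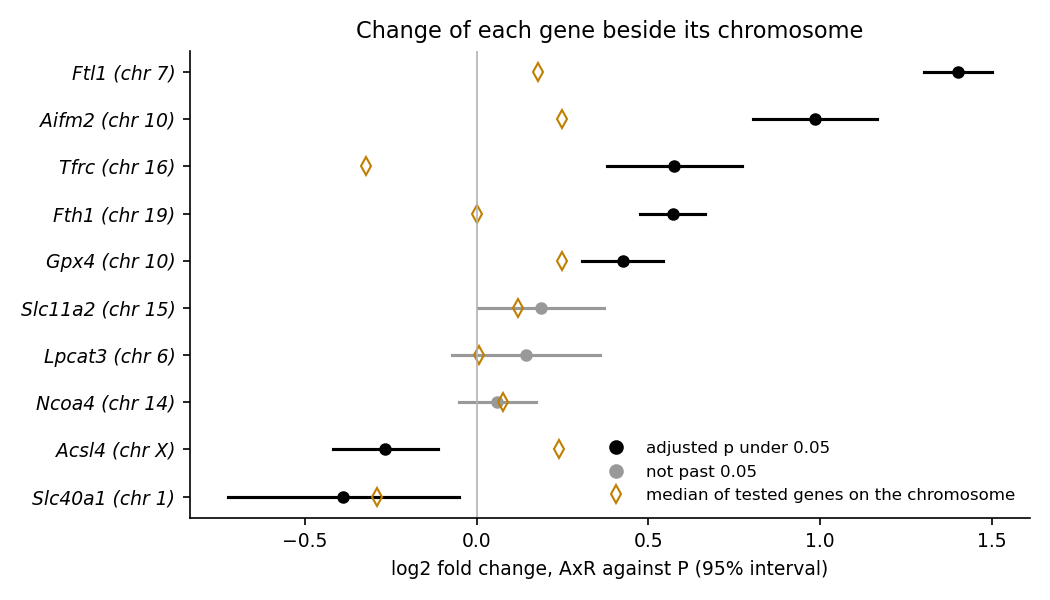
Log2 fold change of AxR against P for each gene with its 95% interval, computed from the edgeR F statistic (black where the adjusted p was under 0.05, grey otherwise). An open diamond marks the median of all tested genes on the chromosome of the gene. Tfrc and Acsl4 lie on the other side of 0 from their chromosomes, at 0.58 and -0.27, whereas the differences of Slc40a1, Ncoa4 and Slc11a2 from theirs were -0.096, -0.015 and 0.066.

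Other genes of these pathways were taken from 5 lists with 118 genes in all, of which 94 were tested. Of the 94, 38 were higher and 31 lower in AxR cells, which is 73.4% beside 63.5% of all genes tested, and their median log2 fold change was 0.014. Every list held genes that rose and genes that fell.

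Among 25 genes of iron and heme transport, 16 were tested, 7 were higher and 3 lower (62.5% called, beside 63.5% of all genes tested), with a median log2 fold change of 0.069. Cp, ceruloplasmin, a copper ferroxidase that works beside ferroportin, had 58.3, 51.0 and 61.9 CPM in P and 424, 495 and 408 CPM in AxR replicates 1 to 3. All AxR libraries were far above all P libraries, a 7.76-fold rise (95% interval 6.78 to 8.89, edgeR adjusted p = 1.61e-10), on chromosome 3 with a median log2 fold change of 0.32. Lrp1, a scavenger receptor that also takes up heme bound to hemopexin, rose 3.34-fold from 357, 358 and 338 to 1130, 1166 and 1220 CPM. Lcn2, which binds iron-loaded siderophores, rose 2.59-fold, with a wide range of 8.57 to 15.6 CPM in AxR cells. Steap2, a metalloreductase, fell 1.62-fold, and Flvcr1, a transporter linked to heme export, fell 1.21-fold. Their log2 fold changes were -0.70 and -0.28, beside chromosome medians of -0.16 and -0.29. Slc39a8, an importer of zinc and iron, had only 14 to 18 counts in P and 2 to 7 counts in AxR libraries (log2 fold change -1.99, standard error 0.44, edgeR adjusted p = 0.00113). Without AxR replicate 1 the log2 fold change was -2.66. Transferrin itself (Trf), Tfr2 and Heph had no count in any library, which allows up to 0.196 CPM where the floor was highest.

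Of 14 iron sensing genes 7 were tested, 2 were higher and 3 lower (71.4%, beside 63.5%), with log2 fold changes from -0.43 to 0.29. Aco1, the iron regulatory protein that doubles as cytosolic aconitase, had a log2 fold change of 0.094 (edgeR adjusted p = 0.259). Ireb2, the other iron regulatory protein, fell by 0.15 on the log2 scale (edgeR adjusted p = 0.0342), with overlapping lines, and the call was lost without P replicate 1 or 3 or AxR replicate 2 or 3. Its adjusted p lay between 0.00887 and 0.182 over all alternatives. The iron chaperones Pcbp1 and Pcbp2 rose by 0.29 and 0.17. Neo1, a receptor that binds hemojuvelin, fell by 0.43 on the log2 scale, and Herc2, a ubiquitin ligase that acts on Ncoa4, fell by 0.12 with an adjusted p of 0.0497 from edgeR that did not hold in 8 of 13 alternatives. Hamp, which encodes the ferroportin ligand hepcidin, had no count in any library.

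Of 24 genes of heme and iron-sulfur cluster metabolism 23 were tested, 8 were higher and 7 lower (65.2%, beside 63.5%), with a median log2 fold change of -0.079. Hmox1, the inducible heme oxygenase, which frees iron from heme, had 20.3, 21.4 and 21.8 CPM in P and 37.6, 38.5 and 48.0 CPM in AxR replicates 1 to 3. All AxR libraries were above all P libraries, a 1.96-fold rise (95% interval 1.71 to 2.25, edgeR adjusted p = 3.81e-07). The other heme oxygenase, Hmox2, fell 1.25-fold (edgeR adjusted p = 0.000354). The log2 fold change of Hmox2 was -0.32, beside a median of -0.32 on chromosome 16. That of Hmox1 was 0.97, beside -0.18 on chromosome 8. Of the biliverdin reductases, Blvrb rose 2.02-fold and Blvra 1.36-fold, Hmox2 and Blvra being named after their values were seen. Urod, of heme synthesis, rose 1.92-fold. The largest falls were those of Isca2 and Nfs1, which build iron-sulfur clusters (1.73-fold and 1.39-fold), and of Ppox, of heme synthesis (1.27-fold). Their log2 fold changes were -0.79, -0.48 and -0.34, beside chromosome medians of 0.0014, -0.093 and -0.29.

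Genes of ferroptosis defence and its regulation were divided. Of 28 genes 27 were tested, 12 were higher and 11 lower (85.2%, beside 63.5%). The 12 include Keap1, which promotes the degradation of NRF2 and so does not itself guard (log2 fold change 0.44, edgeR adjusted p = 1.94e-05). Gch1, the first enzyme of tetrahydrobiopterin synthesis, had 3.77, 4.45 and 3.98 CPM in P and 11.7, 12.4 and 13.1 CPM in AxR replicates 1 to 3, a 3.04-fold rise without overlap (95% interval 2.54 to 3.64, edgeR adjusted p = 2.44e-08). Gclm, the modifier subunit of the enzyme that starts glutathione synthesis, rose 2.97-fold. Gclc, the catalytic subunit of that enzyme, fell (log2 fold change -0.47, edgeR adjusted p = 5.95e-05). Pdss2, of ubiquinone synthesis, rose 2.56-fold. Pdss1 and Coq2, of the same synthesis, fell (log2 fold changes -0.47 and -0.32, edgeR adjusted p = 0.000445 and 0.000686). Slc7a11, the cystine importer that feeds glutathione, rose 1.44-fold, from 110, 112 and 121 to 150, 161 and 182 CPM. Slc3a2, of the same transporter, did not pass the test (log2 fold change -0.14, edgeR adjusted p = 0.0683), and its lines overlapped. On the other side, Gss, which completes glutathione, fell 1.66-fold, and Secisbp2, which directs selenocysteine into proteins such as Gpx4, fell 1.48-fold. Of the other selenocysteine genes listed, Sephs2 rose 1.83-fold (edgeR adjusted p = 2.35e-07), and Sepsecs and Eefsec did not pass the test. Mboat2, a phospholipid acyltransferase, had 32, 38 and 38 counts in P and 4, 2 and 1 counts in AxR replicates 1 to 3 (log2 fold change -3.87, standard error 0.41, edgeR adjusted p = 8.25e-07). Without AxR replicate 1 the log2 fold change was -4.49. Nfe2l2, which encodes the antioxidant regulator NRF2, and Dhodh, a mitochondrial source of ubiquinol, fell by 0.15 and 0.26 on the log2 scale. Both calls rest on single libraries. That of Nfe2l2 (edgeR adjusted p = 0.0299) was lost without P replicate 1 or 3 or AxR replicate 1 or 2, and that of Dhodh (edgeR adjusted p = 0.0284) without P replicate 1 or 3 or AxR replicate 1 or 3, and with DESeq2 (adjusted p = 0.0674).

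The last list held 27 genes linked to the promotion of ferroptosis. They supply or oxidize the lipids, mark ferroptosis, or belong to other processes such as autophagy, polyamine and glutamine metabolism. Of these 27, 21 were tested, 9 were higher and 7 lower (76.2%, beside 63.5%), with a median log2 fold change of 0.029. Fads2, a desaturase that makes polyunsaturated fatty acids, rose 2.69-fold, from 22.3, 26.6 and 22.6 to 68.8, 63.3 and 60.8 CPM. Sat1, a polyamine acetyltransferase, rose 1.71-fold and Por, a reductase that passes electrons to cytochrome P450, 1.70-fold. Cyb5r1, another reductase of this list, fell 1.66-fold without overlap, from a mean of 288 to 174 CPM (edgeR adjusted p = 1.51e-06). Ptgs2, a transcript often read as a mark of ferroptosis, fell from 745, 717 and 767 to 368, 361 and 331 CPM, 2.10-fold lower without overlap. Chac1, also read as such a mark, went the other way, 1.31-fold higher without overlap (edgeR adjusted p = 0.00485). Nox4, an oxidase that makes hydrogen peroxide, fell 4.56-fold, and Aloxe3, of the lipoxygenase family, fell 3.57-fold at under 5 CPM. The lipoxygenases Alox5, Alox12 and Alox15 had at most 3 counts in every library.

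**Figure D5:**
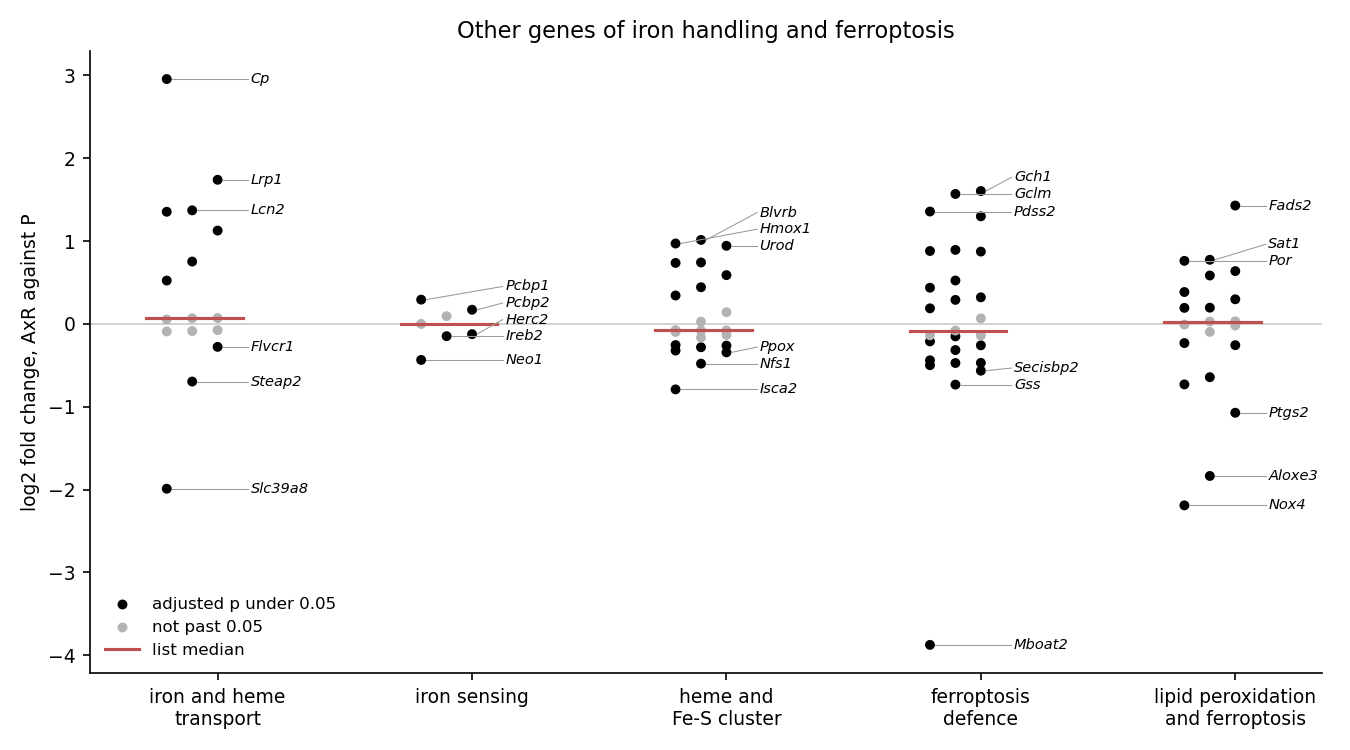
Log2 fold change of AxR against P for the 94 tested genes of the 5 lists (1 point per gene, black where the edgeR adjusted p was under 0.05, grey otherwise), with the list median in red and up to 3 of the highest and 3 of the lowest called genes of each list named. Medians lie between -0.080 and 0.069, and Cp (2.96) and Mboat2 (-3.87) stand farthest from 0.

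The profile of each ferritin chain over the 6 libraries was compared with those of 9249 tested genes with a mean of at least 10 CPM, as the Euclidean distance between log2 CPM values after subtraction of the mean of each gene. The genes nearest to Ftl1 were Slc48a1, a heme transporter of the endolysosome (distance 0.0715), Uap1l1 (0.0932) and Eppk1 (0.0981), where the median distance was 1.74. Slc48a1 had 32.5, 34.1 and 34.0 CPM in P and 88.0, 85.8 and 83.4 CPM in AxR replicates 1 to 3, a log2 fold change of 1.35. It lies on chromosome 15 and Ftl1 on chromosome 7. The genes nearest to Fth1 were Maf1 (distance 0.0309), Nisch (0.0399) and Swap70 (0.0455), with log2 fold changes of 0.57, 0.54 and 0.56. With 2 lines, such distances mostly measure the size of the difference between them.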

How the data were processed

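RNA from 3 P and 3 AxR libraries (poly(A)-selected, stranded kit) was sequenced by the authors, who aligned reads to GRCm38 (GENCODE M16) with STAR 2.6.0a and deposited RSEM 1.3.1 estimated counts per gene, before filtering and normalization. RSEM divides reads that match several genes, and its strand setting is not given in the sources used here.

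Here the estimated counts were rounded, genes with low counts were dropped (filterByExpr), and upper-quartile factors were applied. The comparison used edgeR 4.0.16 (R 4.3.3) in its robust quasi-likelihood form, with the line as the only term and Benjamini-Hochberg adjustment over all 13550 genes tested. Permutation tests used log2(CPM + 0.5) or log2 count ratios. Symbols, positions and exon lengths came from GENCODE M21 of the same build, which held 53360 of the 53465 identifiers, with Hjv matched through a RefSeq synonym. Near-identical genes were found with megablast. Alternatives used TMM, library size only, DESeq2 1.42.0, limma-voom (limma 3.58.1), 2 other filters, the replicate number as a block, and each library left out.

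The genes and lists were chosen with earlier results of these data known. Text names all 10 genes, and from each list the 3 highest and 3 lowest called log2 fold changes, 7 genes set in advance (Ireb2, Aco1, Slc7a11, Hmox1, Nfe2l2, Gch1 and Dhodh) and the 3 nearest profiles of the ferritin chains. Trf, Tfr2, Heph, Hamp, Alox5, Alox12 and Alox15 were named after their values were seen. Gclc, Pdss1, Coq2, Keap1, Sephs2, Sepsecs, Eefsec, Chac1, Cyb5r1 and Slc3a2 were also named in this way. Replicates of a line differed by more than counting noise (chi-square divided by degrees of freedom, 5.10 to 19.7), and each was counted as a separate library. Floors cover counting error only.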

Additional observations from a re-analysis of the deposited data

How the results depend on the processing

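Over all results and alternatives that bear on the main comparison, 330 cases were rated the same, while 6 lost the call, 2 gained it, 23 values moved and 4 changed sign. For single genes, the same means that direction and call were kept. Counts of genes were rated the same where they stayed close to the main count, not only where equal. The 330 include such counts and ratios, which have no call, so they are not 330 repeated calls. A further limit of 1 on the size of the log2 fold change left 1083 genes higher and 640 lower, 1 of the 10 genes higher (Ftl1) and 0 lower (2 by edgeR and 1 by DESeq2 without that limit). It left 1 lower in iron and heme transport, and 0 higher and 0 lower in iron sensing. In heme and iron-sulfur metabolism it left 1 higher and 0 lower, and in ferroptosis defence 4 higher and 1 lower. The list of ferroptosis promotion kept 1 higher and 3 lower. These follow from the added criterion. With each library left out, 5 to 6 of the 10 genes were higher and 1 to 2 lower, iron sensing had 1 to 3 lower, and the log2 fold change lay between -0.50 and -0.25 for Slc40a1, 0.092 and 0.26 for Slc11a2, 0.090 and 0.26 for Lpcat3, and 0.47 and 0.66 for Tfrc. The log2 difference of the ratio of Tfrc to Fth1 lay between -0.13 and 0.089. It was above 0 without P replicate 1 (0.017), P replicate 3 (0.042), AxR replicate 2 (0.031) or AxR replicate 3. With DESeq2, 1 of the 10 genes was lower, Slc40a1 having a log2 fold change of -0.40 (adjusted p = 0.0883). Replicate numbers did not pair the libraries (same-number correlations of deviations of -0.021, -0.0061 and -0.022). With the number as a block 1 was lower, Slc40a1 having -0.38 (edgeR adjusted p = 0.0583), and 4304 genes were higher and 4023 lower in all. The median log2 fold change of all genes was -0.0058 with TMM, -0.015 with library size only and -0.0065 with DESeq2. Depth limits genes with few counts, such as Slc39a8 and Mboat2.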
